A study of Mus musculus with 4 samples.

Results

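The cytosolic ribosomal protein genes, which encode the protein parts of the ribosome outside mitochondria, were followed across the cell classes of the mouse trachea. Members were all genes of the feature table whose symbol was Rpl or Rps with a number and an optional letter or suffix, together with Rplp0, Rplp1, Rplp2 and Rpsa. Pseudogenes and the Rps6k kinases were left out. This gave 84 of 22583 features, 52 with an Rpl and 32 with an Rps name. The rule used symbols alone and no measured value. It also took in copies named after another member, such as Rps27l, Rpl22l1, Rpl7l1 and Rpl36al. Fau and Rack1 encode ribosomal proteins under other names and were not members.

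The mice were bgh (a Spef2 mutation), Cfap54gt/gt (a gene-trapped Cfap54 allele), nm1054 (no Cfap221) and wild-type, all of the 129S6/SvEvTac strain and 5 to 8 months old. The 3 mutant lines have defects of the central pair of motile cilia. Each genotype gave 1 single-cell library, for which 5 bgh tracheas or 6 of each other genotype were pooled, so there was no replicate of a genotype. Ratios between classes were taken within each library and are given by library, with no test. The sources used here did not tie a library number to a genotype, so values are given for libraries 1 to 4 and genotypes were not compared.

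An Rpl protein sits in the large subunit of the ribosome, which joins amino acids, and an Rps protein in the small subunit, which reads the mRNA. Their mRNAs are abundant and are known to begin with a run of C and T bases, the 5' terminal oligopyrimidine tract, through which the mTOR pathway and the RNA-binding protein LARP1 control their translation and stability. In the trachea, basal cells are the stem cells that give rise to secretory cells and to ciliated cells.

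The start regions of the members with the lowest and the highest levels in ciliated-like cells relative to basal-like cells are shown first. Genes of both kinds carried a run of C and T bases near the annotated start. RefSeq promoter windows (build GRCm38.p6) matched 64 of the 84 members by symbol. Each line is 30 bases around the run nearest the annotated start, 5' to 3' on the gene's strand. Capitals mark the run, a C followed by at least 7 bases that are C or T. The Rpl7l1 line has no capitals, as no run lay within 50 bases of its annotated start. In bases from the annotated start, the run began at -12 in Rps27l, 3 in Rpl22l1, 40 in Rpl41 and 41 in Rps19. Such a run was thus not shown to be the 5' terminal tract.
Rps12 (chr10:23787182-23787211, minus strand): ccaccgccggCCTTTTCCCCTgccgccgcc
Rpl12 (chr2:32961732-32961761, plus strand): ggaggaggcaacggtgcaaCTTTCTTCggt
Rps7 (chr12:28635911-28635940, minus strand): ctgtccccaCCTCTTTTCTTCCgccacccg
Rps19 (chr7:24884612-24884641, plus strand): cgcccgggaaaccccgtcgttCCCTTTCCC
Rpl36al (chr12:69184020-69184049, minus strand): gctctgttcgtCCCTTTCCTgttcggcgcg
Rpl22l1 (chr3:28805500-28805529, plus strand): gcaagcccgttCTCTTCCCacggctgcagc
Rpl7l1 (chr17:46782642-46782671, minus strand): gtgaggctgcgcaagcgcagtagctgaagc
Rpl41 (chr10:128549119-128549148, minus strand): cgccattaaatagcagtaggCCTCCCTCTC
Rps27l (chr9:66946063-66946092, plus strand): actcctctccaCTCCTCCCCgccgcctcta

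Such a run was found in 53 of the 64 members with a window (82.8%), against 32.0% of all 27025 genes in the table. It was searched on the gene's strand within 50 bases of the annotated start. Annotated starts can lie some bases from the true ones. CCGGAAG, the core bound by ETS-family factors, stood on either strand of the whole window in 26 of the 64 members (40.6%), against 9.93% of all genes. Members with such a run had a median log2 ratio of ciliated-like to basal-like cells of -1.96 (51 genes). Members without one had a median of -2.11 (10 genes). As the search cannot tell which mRNAs truly begin with the tract, these medians do not decide whether the tract goes with the ratio.

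After filtering, libraries 1 to 4 held 3692, 3830, 6746 and 5203 cells. Counts were unique molecular identifiers (UMIs, each standing for 1 captured mRNA), with a median of 5734.5 to 6780 per barcode and library before filtering. The members took 9.69% of all UMIs of the kept cells. The cells were clustered without the member genes and the clusters were named from marker genes. Ciliated-like cells numbered 4750, secretory-like cells 6103 and basal-like cells 5064. The 8 ciliated markers held 0.724% to 0.934% of UMIs in ciliated-like cells and at most 0.0137% in the other 2 classes. The 8 secretory markers held 36.9% to 40.3% of UMIs in secretory-like cells, 0.917% to 2.15% in ciliated-like cells and 1.15% to 2.40% in basal-like cells. The 8 basal markers held 0.331% to 0.543% of UMIs in basal-like cells and at most 0.128% elsewhere. Secretory mRNA was thus present at a low level in every class, free RNA was not subtracted, and its part in the results was not tested. Clusters with markers of several lineages (2522 cells) and unnamed ones (631 cells) entered no comparison.

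Ribosomal protein mRNA took less of the transcriptome in ciliated-like and secretory-like cells than in basal-like cells, in all 4 libraries. In ciliated-like cells the members held 5.36%, 6.33%, 5.98% and 5.31% of UMIs in libraries 1 to 4. In secretory-like cells they held 7.72%, 8.09%, 8.77% and 7.73%. In basal-like cells they held 22.0%, 20.9%, 21.8% and 21.8%. The 3 classes did not overlap. The gap to basal-like cells was far wider than the spread among libraries, where the highest over the lowest share was 1.19 in ciliated-like, 1.14 in secretory-like cells and 1.05 in basal-like cells. The gap between ciliated-like and secretory-like cells was 1.28-fold to 1.47-fold within a library, closer to that spread. The 95% Clopper-Pearson interval, which covers counting error only, was 5.29% to 5.33% for ciliated-like cells and 21.8% to 21.9% for basal-like cells of library 4.

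The share in ciliated-like cells was 3.87-fold lower than in basal-like cells, with a median log2 ratio of -1.95 over the 4 libraries and a range of -2.04 to -1.73. The share in secretory-like cells was 2.70-fold lower than in basal-like cells, with a median log2 ratio of -1.44 and a range of -1.51 to -1.32. Ciliated-like cells were 1.45-fold below secretory-like cells, with a median of -0.53 and a range of -0.55 to -0.35. The order of the 3 classes was therefore the same in every library.

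A share depends on what else a cell makes. With the 24 marker genes of the 3 classes taken out of the totals, the secretory-like share was 12.99%, the log2 ratio to basal-like cells was -0.75, and that of ciliated-like to secretory-like cells was -1.19. The median secretory-like cell held 1227.5, 951, 697 and 819.5 member UMIs in libraries 1 to 4, and the median basal-like cell 1360, 954, 728 and 1019. Per cell, secretory-like cells thus had 0.804 to 0.997 times the ribosomal protein UMIs of basal-like cells, while their total UMIs were 2.495 to 2.86 times as many. The median ciliated-like cell held 290, 191, 159 and 170.5 member UMIs, 4.58-fold to 5.98-fold fewer than the basal-like cell, while its total UMIs were 1.49-fold to 1.91-fold fewer. The lower share of secretory-like cells went with a larger total and a similar number of ribosomal protein UMIs per cell, and that of ciliated-like cells with fewer ribosomal protein UMIs. Capture can differ between classes, and fewer mRNAs in a cell and poorer capture cannot be told apart here.

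Among the small classes, proliferating-like cells (155 cells, led by Ube2c, Top2a and Mki67) held 14.5%, 16.8%, 13.8% and 16.7% in libraries 1 to 4, between secretory-like and basal-like cells. Hillock-like cells (168 cells, with Krt13 and Krt4) held 7.90%, 10.6%, 8.37% and 8.28%, overlapping the secretory-like range. T cell-like cells (41 cells, 6 to 16 in a library) held 27.6%, 30.8%, 20.3% and 31.1%. Macrophage or monocyte-like cells (37 cells) held 15.3%, 25.4%, 15.4% and 14.6%, and the library at 25.4% contributed 6 cells. Summed over UMIs, the T cell-like share lay above the basal-like one in 3 of 4 libraries. As a mean over cells it lay above in all 4, with 26.4% against 23.0% in library 3. Markers of other classes were also up in some of these clusters, 7 of 8 basal and 6 of 8 secretory markers in the proliferating-like one and 5 of 8 basal and 6 of 8 secretory markers in the hillock-like one, so their shares are not those of cells with 1 set of markers.

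**Figure D1:**
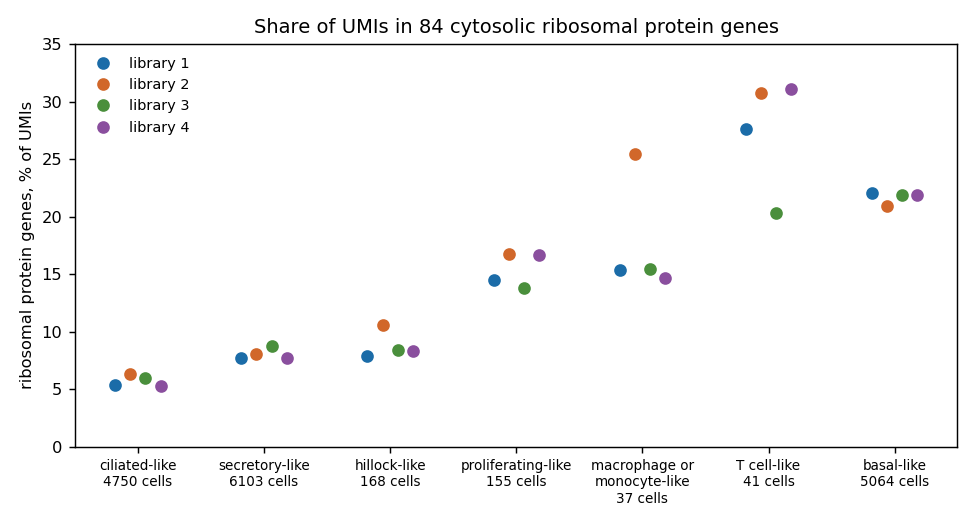
Share of UMIs in the 84 ribosomal protein genes (vertical axis, % of all UMIs of the class) for each named cell class (horizontal axis), with 1 point per library and the number of cells under each name. The ciliated-like points lie at 5.31% to 6.33% and the secretory-like points at 7.72% to 8.77%, well below the basal-like points at 20.9% to 22.0%.

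Nearly every member followed the sum. A gene was counted as lower or higher where its CPM (its UMIs scaled to a total of 1000000 for each class in a library, here with 1 CPM added) differed at least 1.5-fold in the same direction in all 4 libraries. Of the 84 members, 81 had at least 50 UMIs in the compared classes. Between ciliated-like and basal-like cells, 78 of these 81 were lower and 0 were higher, where 16.0% of all 11790 genes tested were lower and 30.2% higher. The median log2 ratio was -1.94 over the members and 0.27 over all genes. At least 2-fold differences in all 4 libraries were seen for 74 members and at least 4-fold ones for 22. Counts at these wider limits were not made over all genes, and the shares above are for 1.5-fold.

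Between secretory-like and basal-like cells, 80 of 81 members were lower and 0 higher, against 31.3% and 3.92% of all 11669 genes tested. The medians were -1.40 over the members and -0.49 over all genes. With the 24 marker genes out of the totals, 48 members were lower and 0 higher, against 11.8% and 12.6% of all genes. The medians were then -0.72 over the members and 0.07 over all genes. Between ciliated-like and secretory-like cells, 22 members were lower and 1, Rpl41, was higher, against 5.22% and 45.1% of all 11991 genes tested. There the medians were -0.52 over the members and 0.75 over all genes. These counts and medians were not made with the marker genes out of the totals.

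The members themselves did not move equally. Rps12, a small-subunit protein, had 513, 661, 658 and 475 CPM among ciliated-like cells in the order of the libraries, 1277, 1360, 1502 and 1101 CPM in secretory-like cells, and 4399, 4424, 4744 and 3944 CPM in basal-like cells. Its median log2 ratio of -2.95 between ciliated-like and basal-like cells (range -3.10 to -2.74) was the lowest of all members, and the 3 classes did not overlap. Rpl12, at the base of the stalk of the large subunit, had 363, 449.95, 448 and 419.7 CPM in ciliated-like cells, 852, 944, 960.4 and 938 CPM in secretory-like cells, and 2734, 2773, 2992 and 3031 CPM in basal-like cells, a median of -2.79. Its 3 classes did not overlap either. Rps7 stood at -2.72 and Rps19, which is mutated in a human inherited anaemia, at -2.66. All of these had smaller differences between secretory-like and basal-like cells, with medians of -1.74 for Rps12, -1.66 for Rpl12, -1.69 for Rps7 and -1.97 for Rps19.

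In secretory-like cells the low members included Rps19 (-1.97), the X-linked Rps4x (-1.93), Rps3 (-1.79) and Rps12 (-1.74). Rps4x had 847, 1006, 1095 and 1009 CPM in secretory-like cells and 3386, 3710, 4005 and 3977 CPM in basal-like cells. Rps19 and Rps12 were also low in ciliated-like cells. The least lowered were Rps27l (-0.10), Rpl41 (-0.70), Rpl36al (-0.78), Rpl10 (-0.82) and Rpl38 (-0.98). Rpl10 is known to join the large subunit late in its maturation, and it had 1249, 1406, 1478 and 1405 CPM in secretory-like cells and 2364, 2365, 2374 and 2618 CPM in basal-like cells.

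**Figure D2:**
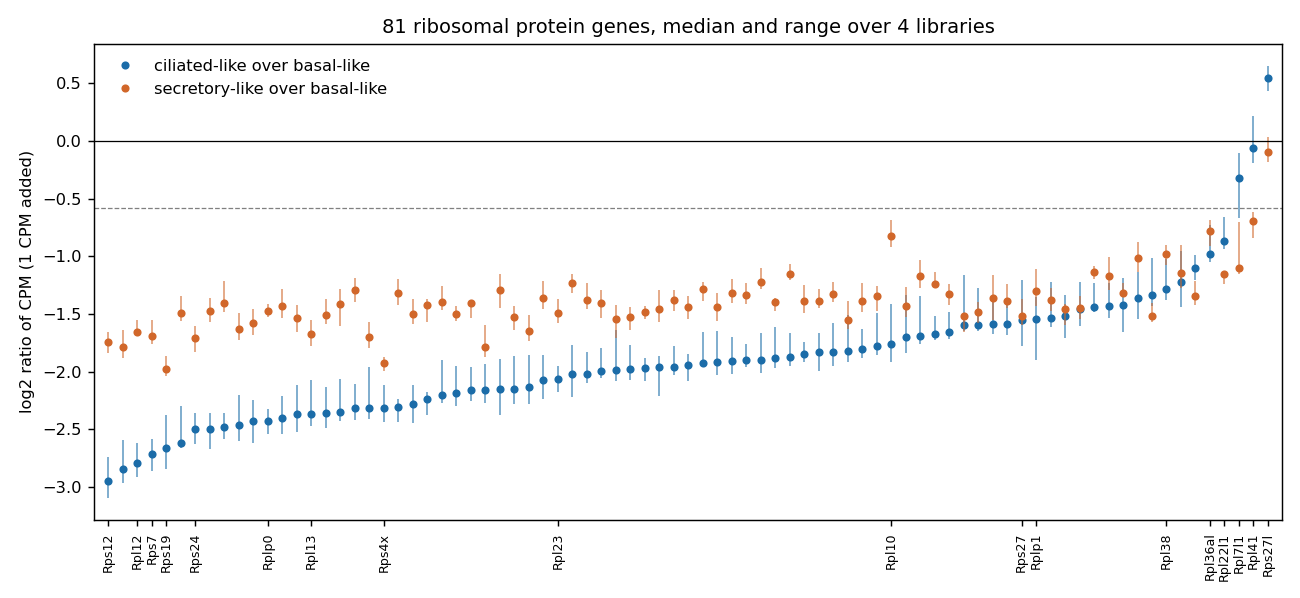
Log2 ratio of CPM, with 1 CPM added, for the 81 members with enough UMIs (horizontal axis, ordered by the ciliated-like ratio, with some of the genes labelled), ciliated-like over basal-like in blue and secretory-like over basal-like in orange. Points are medians and lines the range over 4 libraries, and the dashed line marks 1.5-fold lower. The blue points run from -2.95 for Rps12 to 0.54 for Rps27l, and the orange points from -1.97 for Rps19 to -0.10 for Rps27l.

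Rpl41, the shortest ribosomal protein, stood apart. It had 2524, 2823, 3097 and 2242 CPM in ciliated-like cells, 1584, 1578, 2060 and 1428 CPM in secretory-like cells, and 2696, 2437, 3167 and 2560 CPM in basal-like cells. The ciliated-like and basal-like values overlapped, with a median log2 ratio of -0.06 (range -0.19 to 0.21), and the secretory-like values were lowest in each library. The totals behind these CPM hold the secretory markers, which took 36.9% to 40.3% of UMIs in secretory-like cells. Rpl41 values without the marker genes are not given here. Its low place in secretory-like cells was thus not shown apart from that total. Out of every 1000 member UMIs, Rpl41 gave 42.2 to 51.8 in ciliated-like, 18.5 to 23.5 in secretory-like and 11.6 to 14.5 in basal-like cells. In ciliated-like cells thinned to 1000 UMIs each, 87.5% to 94.4% held a UMI of Rpl41, and 40.8% to 54.2% one of Rps12. In basal-like cells thinned in the same way, 88.7% to 94.6% held a UMI of Rpl41 and 95.7% to 98.3% one of Rps12. Without thinning, the shares for Rps12 were 78.2% to 89.6% in ciliated-like and 99.2% to 99.8% in basal-like cells. No cell class of the trachea is known to lack ribosomal protein mRNA, so no class gave a background for these shares.

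Members with an l suffix, each a copy named after another member, were among the least lowered. Rps27l, known as a p53 target, had 442, 460, 434 and 381 CPM in ciliated-like cells, 280, 307, 271 and 250 CPM in secretory-like cells, and 317, 300, 276 and 283 CPM in basal-like cells. It was higher in ciliated-like than in basal-like cells in 4 of 4 libraries, with a median log2 ratio of 0.54 (range 0.43 to 0.65), and did not reach 1.5-fold in every library. Its namesake Rps27, a small-subunit protein, had 1159, 1332, 1167 and 765 CPM in ciliated-like cells and 3976, 3082, 3325 and 2309 CPM in basal-like cells, a median of -1.55. The 2 genes thus lay on opposite sides of an equal level between these classes.

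Rpl22l1 had 443, 529, 428 and 388 CPM in ciliated-like cells and 772, 835, 819 and 744 CPM in basal-like cells. Its median log2 ratio was -0.87, against -1.99 for Rpl22, an RNA-binding protein of the large subunit. Rpl7l1, known in ribosome assembly, had 48.0, 42.8, 52.1 and 51.8 CPM in ciliated-like cells and 67.9, 68.4, 57.7 and 55.8 CPM in basal-like cells. Its median was -0.32, below 0 in all 4 libraries and under 1.5-fold in 3 of them, against -1.85 for Rpl7. Rpl36al had a median of -0.98, against -2.37 for Rpl36a. In each of these 4 pairs the l copy was the less lowered in ciliated-like cells. Between secretory-like and basal-like cells the pairs stood at -0.10 and -1.52 for Rps27l and Rps27, -1.16 and -1.41 for Rpl22l1 and Rpl22, -1.10 and -1.39 for Rpl7l1 and Rpl7, and -0.78 and -1.53 for Rpl36al and Rpl36a. Near-identical sequences can split or share reads between copies in the authors' counting, so values of paralogs are less certain than the rest.

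The remaining l copies were not measurable in this tissue. Rpl10l and Rpl39l had 0 UMIs in every barcode, and Rpl3l, known from striated muscle, had 1 UMI in the kept cells. Their namesakes were abundant. In ciliated-like cells the median log2 ratio to basal-like cells was -1.76 for Rpl10, -2.35 for Rpl39 and -2.16 for Rpl3.

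**Figure D3:**
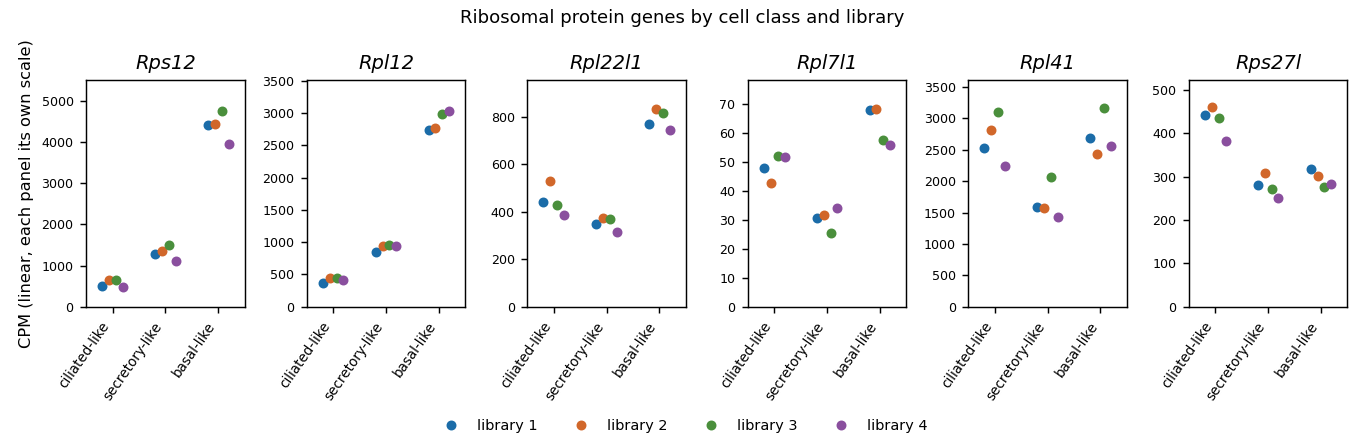
CPM of 6 members (vertical axis, linear, each panel on its own scale from 0) in ciliated-like, secretory-like and basal-like cells, with 1 point per library. Rps12 and Rpl12 are lowest in ciliated-like and highest in basal-like cells, Rpl41 overlaps between ciliated-like and basal-like cells, and all 4 Rps27l points are higher in ciliated-like cells. Marker genes were kept in the totals.

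By summed UMIs, which come from 3' ends and were not scaled by length, the largest members included Rplp1, Rpl13, Rpl23, Rps24 and Rplp0. Rplp0 and Rplp1 form the acidic stalk that recruits elongation factors. Rplp1 had 1922, 2842, 2986 and 2037 CPM in ciliated-like cells and 7166, 7273, 7976 and 6454 CPM in basal-like cells, a median log2 ratio of -1.54. Rplp0 had 785, 973, 908 and 932 CPM in ciliated-like cells and 4575, 4945, 4555 and 5304 CPM in basal-like cells, a median of -2.43. The 2 stalk genes thus differed in how far they were lowered. Rpl23 had a median of -2.06, Rpl13 of -2.37 and Rps24 of -2.50. Between secretory-like and basal-like cells these members spanned -1.71 for Rps24 to -1.30 for Rplp1.

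The balance of Rpl and Rps UMIs shifted a little with the class. Rpl genes gave 60.4% to 61.0% of member UMIs in ciliated-like cells, 58.3% to 59.3% in secretory-like cells and 55.3% to 56.1% in basal-like cells. Without Rpl41 the figures were 58.5% to 59.1%, 57.4% to 58.5% and 54.8% to 55.6%, so that ciliated-like and secretory-like cells met and basal-like cells stayed lower. In single cells thinned to 1000 UMIs, a median of 39 to 45 members had a UMI in ciliated-like, 45 to 49 in secretory-like and 68 to 70 in basal-like cells. Before thinning these medians were 64 to 74, 78 to 80 and 78 to 80. Thinning left out 593 ciliated-like, 23 secretory-like and 35 basal-like cells that were shallower.

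Cell depth was the second axis. In ciliated-like cells the share was lower in deeper cells, with 11.3%, 8.98%, 9.20% and 8.90% below 1000 UMIs in libraries 1 to 4. From 2000 to under 4000 UMIs it was 8.27%, 7.97%, 6.67% and 6.78%, and from 8000 to under 16000 UMIs 4.01%, 4.17%, 4.95% and 3.90%. The few cells with 16000 UMIs or more (8 to 52 a library) held 4.48% to 5.85%, not lower than the bin before. Over cells with at least 8000 UMIs against cells with under 4000, the median log2 ratio of the share was -0.87, with -1.05, -0.92, -0.54 and -0.83 in libraries 1 to 4. On the same contrast 28 members were at least 1.5-fold lower in all 4 libraries and 0 higher, where 10.1% of 9973 genes were lower and 11.8% higher. Rpl41 was among the 28, at a median of -1.21, whereas Rpl7l1 was at 0.25 and above 0 in 3 of 4 libraries.

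Much of this range lay between clusters of ciliated-like cells that differed in depth. The largest (3089 cells, median 1995 UMIs, with Dynlt4 and Sntn) held 6.98% to 8.21%. A deeper one (1349 cells, median 7467 UMIs, with Cdh26 and Cfap45) held 3.89% to 4.78%, and its mitochondrial share of UMIs was also higher, at a median of 5.03% against 2.95% in the largest. A shallow one (312 cells, median 748 UMIs) held 10.8% to 13.2%, with a mitochondrial share of 0.174%. Within the largest cluster, cells under 4000 UMIs held 8.18%, 8.34%, 8.27% and 7.19% and cells from 4000 to under 8000 UMIs 7.05%, 6.48%, 7.09% and 6.54%. Its few cells with 8000 UMIs or more (2 to 16 a library) held 7.05%, 6.47%, 8.34% and 6.32%. Inside the deeper cluster there was no common order by depth. Its cells under 4000 UMIs (7 to 87 a library) held 5.96%, 5.15%, 4.65% and 2.99% in libraries 1 to 4, those from 4000 to under 8000 UMIs 4.44%, 4.27%, 4.44% and 3.89%, and those with 8000 UMIs or more 3.97%, 4.31%, 5.23% and 3.94%. The lower share of deeper cells thus held within the largest cluster between its 2 shallower bins, and not within the deeper cluster in every library. Over single ciliated-like cells, which share libraries and depth, Spearman's rho between the share and UMIs was -0.71 to -0.54, and between the share and the mitochondrial share -0.50 to -0.34 (983 to 1296 cells a library). What part each of these plays was not tested.

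The contrast by depth was smaller in the other classes. In secretory-like cells the log2 ratio of deep to shallow cells had a median of -0.23 and a range of -0.60 to -0.17, with 0 members past 1.5-fold in either direction, against 1.42% of 10774 genes lower and 8.46% higher. Only 22 to 88 secretory-like cells a library had under 4000 UMIs. With the 24 marker genes out of the totals the median was -0.021. In basal-like cells the median was -0.37 and the range -0.40 to -0.11, with 0 members past 1.5-fold, against 0.948% of 9073 genes lower and 2.15% higher. Spearman's rho over cells between the share and UMIs was -0.29 to -0.092 in secretory-like and -0.48 to -0.20 in basal-like cells.

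Basal-like cells did not fall steadily with depth. From 1000 to under 2000 UMIs they held 11.5%, 20.8%, 27.6% and 13.6% in libraries 1 to 4, from 2000 to under 4000 UMIs 23.2%, 24.4%, 23.8% and 25.6%, and from 8000 to under 16000 UMIs 20.4%, 19.0%, 18.6% and 19.3%. The shallowest bins thus differed among libraries and rested on few cells, 22 to 104 from 1000 to under 2000 UMIs and 5 to 15 below that. From 1000 to under 2000 UMIs their mitochondrial share was 14.7%, 9.79%, 7.29% and 12.9% in libraries 1 to 4, and below that 13.4% to 17.9%. From 2000 to under 4000 UMIs it was 8.88%, 6.24%, 5.48% and 5.13%. Its part in the low shares was not tested. The basal-like clusters also differed. The one with Apoe, Dapl1 and Dlk2 held 23.4% to 25.7%, the one with Snai2, Krt17 and Sprr1a 21.0% to 23.1%, and the one with Krt14, Serpinb2 and Serpinb5 17.95% to 19.6%. These 3 ranges did not overlap, and their median depths were 3461, 3805 and 5239 UMIs.

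At a matched depth of 4000 to under 8000 UMIs the differences between classes remained. There the median share was 4.72% in ciliated-like, 8.94% in secretory-like cells and 21.1% in basal-like cells. The median log2 ratio was -2.11 for ciliated-like over basal-like cells and -1.27 for secretory-like over basal-like cells. For ciliated-like over secretory-like cells it was -0.89. In ciliated-like and secretory-like cells 77 and 76 members were lower than in basal-like cells. The share of all genes lower at this depth is not given here, so these counts have no background. Counted as a mean over cells, in which shallow cells weigh as much as deep ones, the ratio of ciliated-like to secretory-like cells was -0.19.

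**Figure D4:**
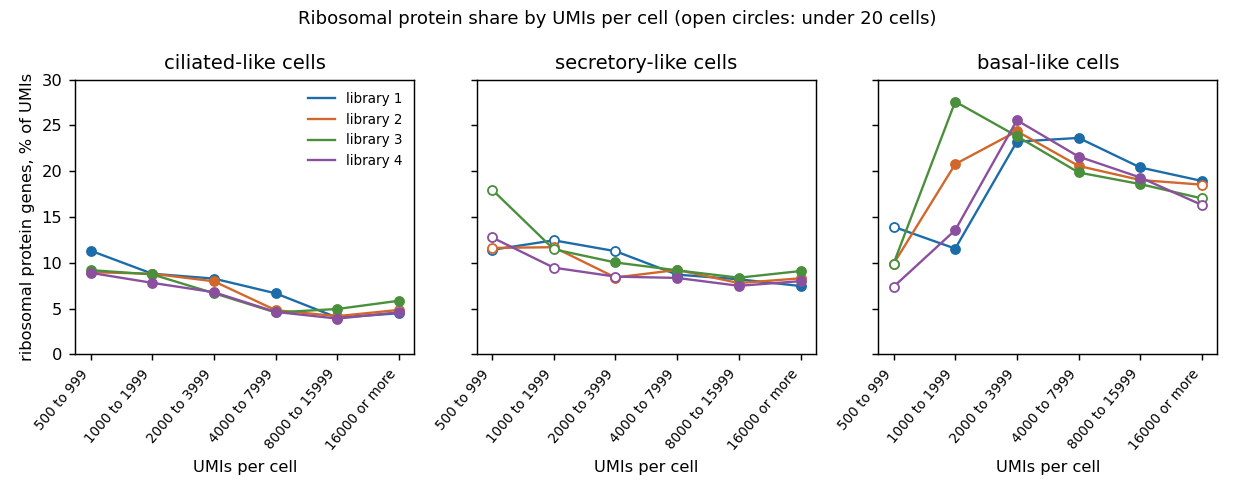
Share of UMIs in ribosomal protein genes (vertical axis, %) by UMIs per cell (horizontal axis, bins from low to high) in ciliated-like, secretory-like and basal-like cells, with 1 line per library and open circles for bins of under 20 cells. The ciliated-like lines run from 8.90% to 11.3% in the lowest bin to 3.90% to 4.95% from 8000 to under 16000 UMIs and 4.48% to 5.85% above that, while basal-like cells with 2000 UMIs or more hold over 16.3%.

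Genes of the same pathway were taken from lists chosen with earlier results of these data known. Of 20 translation factors and other genes known for a 5' terminal oligopyrimidine tract, 19 were lower in ciliated-like and 20 in secretory-like cells than in basal-like cells, and 0 were higher, where 16.0% and 31.3% of all genes tested were lower. Eef1b2, a subunit of the elongation factor complex, had the lowest ratio in ciliated-like cells at -2.78, and Rack1, the small-subunit scaffold, was next at -2.44. Btf3, which binds nascent chains, stood at -0.79 and Eif4b, an initiation factor, at -0.51. In secretory-like cells Hnrnpa1 (-1.86) and the poly(A)-binding protein Pabpc1 (-1.78) were lowest, and the elongation factor Eef2 (-0.89) and Btf3 (-0.83) highest. The list medians were -1.72 and -1.13, against 0.27 and -0.49 over all genes. With the 24 marker genes out of the totals, 7 of the 20 were lower in secretory-like cells, where 11.8% of all genes were lower and 12.6% higher. Fau encodes a ribosomal protein fused to a ubiquitin-like protein and is reported here for that reason. Its median was -1.78 in ciliated-like cells and -1.38 in secretory-like cells, inside the range of the members.

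Of 38 ribosome biogenesis genes, 27 were lower and 2 higher in ciliated-like than in basal-like cells, and 33 were lower and 0 higher in secretory-like cells. Of all genes tested, 16.0% were lower and 30.2% higher in ciliated-like cells, and 31.3% were lower in secretory-like cells. The box C/D particle protein Nop58 (-2.36) and the nucleolar GTPase Gnl3 (-2.34) were lowest in ciliated-like cells, and Rrp1 (0.80) and Polr1c (1.06), a subunit shared by RNA polymerases I and III, were the higher ones. Nop58 (-1.94) and Nop56 (-1.93) were lowest in secretory-like cells, where Rrp1 (-0.59) and Rrp12 (-0.30) did not pass 1.5-fold in every library. The list medians were -1.37 and -1.30. With the marker genes out of the totals, 17 of the 38 were lower in secretory-like cells, against 11.8% of all genes, and the median was -0.68.

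Of 17 mTOR and Myc genes with enough UMIs, 7 were lower in ciliated-like and 10 in secretory-like cells, and 0 were higher, against 16.0% and 31.3% of all genes lower. The list medians were -0.59 and -0.71. With the marker genes out of the totals, 3 (17.6%) were lower in secretory-like cells, against 11.8% of all genes. The median was then -0.055, close to the 0.07 of all genes. The growth-related transcription factor Myc had 31.2, 14.6, 11.4 and 14.5 CPM in ciliated-like cells, 46.9, 47.9, 41.4 and 39.0 CPM in secretory-like cells and 248, 290, 233 and 201 CPM in basal-like cells, with medians of -3.97 and -2.42. Sesn2, a stress-induced inhibitor of mTOR, had a median of -3.15 in ciliated-like cells, and Ddit4, another inhibitor, one of -2.83 in secretory-like cells. Tsc1 and Tsc2, which restrain mTOR, stood at 0.61 and 0.55 in ciliated-like and 0.44 and 0.05 in secretory-like cells, and neither passed 1.5-fold in every library.

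Mitochondrial ribosomal protein genes, which serve the separate ribosome of mitochondria, did not move with the members. In ciliated-like cells 33 of 77 were higher and 1 lower than in basal-like cells, where 30.2% of all genes were higher and 16.0% lower, with a list median of 0.64 against 0.27 for all genes and -1.94 for the cytosolic members. Mrps17 (2.98) and Mrpl39 (2.89) were highest, and Mrpl32 (-0.66) and Mrps23 (-0.34) lowest. Mrps17 had 278, 334, 307 and 387 CPM in ciliated-like cells and 49.2, 43.3, 36.5 and 44.4 CPM in basal-like cells. In secretory-like cells 1 of 78 was higher, Mrpl14 (1.04), and 9 were lower, among them Mrps6 (-1.57) and Mrpl9 (-1.12). Of all genes, 3.92% were higher and 31.3% lower there. The list median in secretory-like cells was -0.21, and with the marker genes out of the totals it was 0.42. At that setting 16 genes of the list were higher and 1 lower, against 12.6% and 11.8% of all genes. Mrpl22 stood at 0.52, under 1.5-fold in at least 1 library.

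Between libraries the summed share differed little, but some single members differed in every class. Scaled to all member UMIs of a class, the median member had a highest over lowest library of 1.20 in ciliated-like, 1.22 in secretory-like cells and 1.20 in basal-like cells. In all 3 classes at least 1.5-fold ranges were seen for 10 members, which were Rpl26, Rpl29, Rpl35, Rpl37, Rpl38, Rpl39, Rps10, Rps21, Rps27 and Rps3a1. For each of these 10 the highest and the lowest library were the same in all 3 classes, as they were for 35 of all 81. Neither such ranges nor the agreement of libraries was computed over all genes, so they were not shown to be particular to the members. Each genotype was 1 library, so a difference of genotype and one of library preparation cannot be told apart, and these values were not tested.

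Rpl29, a heparin-binding protein of the large subunit, varied most. Out of 1000 member UMIs it gave 1.13, 4.76, 1.16 and 0.594 in ciliated-like cells of libraries 1 to 4, 0.858, 3.77, 1.10 and 0.461 in secretory-like cells, and 0.891, 3.73, 0.999 and 0.428 in basal-like cells. Library 2 was thus highest and library 4 lowest in each class, with ratios of 8.01, 8.19 and 8.72. Rpl26 gave 8.46, 13.2, 14.6 and 7.76 in ciliated-like cells and 8.32, 13.01, 14.0 and 7.67 in basal-like cells, and libraries 2 and 3 stood above libraries 1 and 4. Rpl35 gave 9.62, 8.10, 5.96 and 5.08 in ciliated-like cells and 9.15, 7.68, 5.93 and 5.05 in basal-like cells, lowest in library 4. Rps3a1, chosen here after its values were seen, gave 14.9, 11.6, 10.4 and 17.9 in ciliated-like cells and 16.8, 12.8, 10.4 and 18.03 in basal-like cells, highest in library 4. Of the 10 members above, 8 were lowest in library 4, and 6 (Rpl35, Rpl37, Rpl38, Rpl39, Rps21 and Rps27) were also highest in library 1. The full set was not one-sided. Of all 81 members, 25 were lowest and 24 highest in library 4 in all 3 classes. In library 1, 15 were lowest and 21 highest. Transcript length moved with part of this. Over the 81 members, Spearman's rho between the median annotated transcript length and the log2 ratio of library 4 to library 1 was 0.51 in ciliated-like, 0.48 in secretory-like cells and 0.43 in basal-like cells, and for ciliated-like over basal-like cells it was -0.25. Members share libraries and depth, and the part of length in the library differences was not tested.

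**Figure D5:**
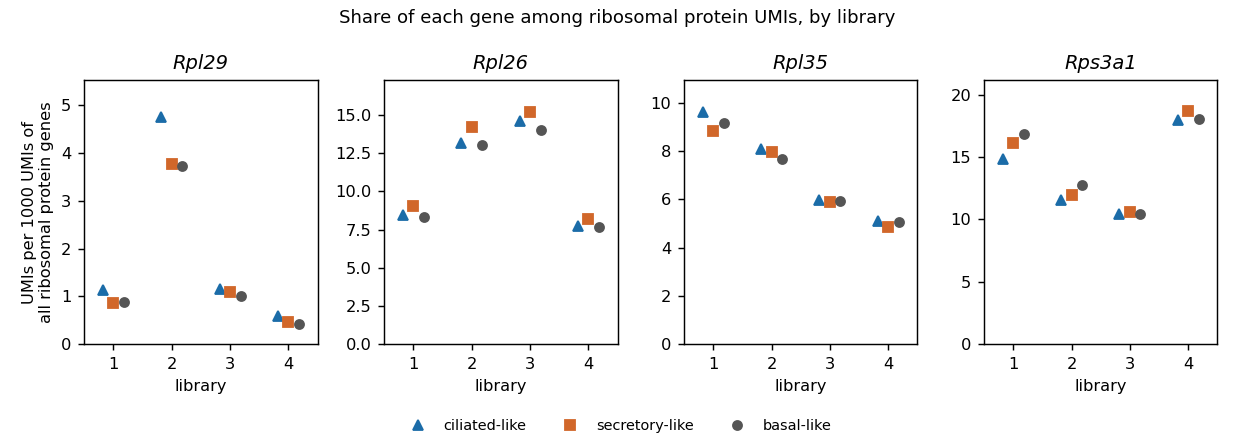
UMIs of Rpl29, Rpl26, Rpl35 and Rps3a1 per 1000 UMIs of all ribosomal protein genes (vertical axis, linear, from 0) in libraries 1 to 4 (horizontal axis), with 1 symbol per cell class. The 3 classes lie close together within each library, and Rpl29 reaches 3.73 to 4.76 in library 2 against 0.428 to 1.16 in the other libraries.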

How the data were processed

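The deposited matrix held raw counts of UMIs per gene and barcode for all libraries together, from Chromium 3' v3.1 libraries per the labels' protocols. The build was GRCm39 per the submitters' processing notes, and the writing program Cell Ranger 6.0.1 per the file headers. The annotation release is not given in the sources used here. Kept cells had at least 500 UMIs, at least 300 genes and at most 20% mitochondrial UMIs, which removed 1308 barcodes. The 888 cells with the highest doublet scores were also removed, at 0.8% per 1000 cells, because the automatic threshold of Scrublet marked 0.0442% of cells. Libraries shared 52 barcode sequences, which were kept as separate cells.

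Members were removed before scaling, selection of 2000 variable genes, 30 principal components, 15 neighbours and Leiden clustering at resolution 1 (scanpy 1.11.5), which gave 19 clusters. They were named from 24 marker lists by a scoring rule set after the data were seen. A name needed 3 markers, each detected in at least 10% of cells and, with 5 CPM added, 1 log2 unit or more over the 25th percentile of all clusters. Clusters with at least 75% of the markers of another lineage up were called mixed, where basal, secretory, goblet, hillock and serous lists counted as 1 lineage, ciliated and deuterosomal lists as another, leukocyte lists as a further one, and the proliferating list was exempt.

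UMIs were summed per library and class. Ratios are log2 of CPM with 1 CPM added, for genes with at least 50 UMIs in both classes together. The ratio and call step was tested on simulated counts. Ratios were taken within each library and given with no test, and genotypes had 1 library each. Intervals cover counting error only.

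The text names the 6 members with most UMIs, the 5 highest and 5 lowest per comparison with basal-like cells, each l copy with its namesake, the 3 that varied most between libraries in each class, and the 2 highest and 2 lowest of each pathway list. Some genes that this rule takes are not reported here. The members and lists were chosen with earlier results of these data known. In all, 8 other settings were tried, and 2 more, as well as the counts of the pathway lists without marker genes, were chosen after seeing the data. Promoter windows came from RefSeq (GRCm38.p6), were matched by symbol and were not joined to coordinates of the deposited files.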

Additional observations from a re-analysis of the deposited data

Results flagged for a closer look

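Barcodes that entered no comparison also held ribosomal protein UMIs. The 888 cells removed for a high doublet score held 10.2% of their UMIs in the members, with 8.91%, 10.2%, 11.0% and 9.89% in libraries 1 to 4, between the secretory-like and the basal-like shares. The 1308 barcodes removed for few genes or a high mitochondrial share held 4.29%, with 4.57%, 4.31%, 4.47% and 3.84%, below every library's share in ciliated-like, secretory-like and basal-like cells. Their mitochondrial share of UMIs was 36.9%.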

How the results depend on the processing

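No ratio of the summed share between classes changed sign in its median over the libraries under any of the 10 alternatives. Nor did a ratio of deep to shallow cells, apart from the alternative at matched depth, which has no such ratio. For a named member a change of sign was looked for only where it passed 1.5-fold in all 4 libraries in the main setting. None was found there, and members short of that limit, such as Rps27l, were not checked. Of 107 values of the comparisons 65 moved beyond counting error (for a count of members, beyond 1.5 times) and 42 did not. Of 580 values of named members 108 moved beyond the range of the 4 libraries and 472 did not. Ratios between classes and depths were taken within each library, so they were matched by library. Between genotypes no paired analysis was possible because each was 1 library and the labels gave no shared replicate numbers.

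The denominator mattered most for secretory-like cells. With the marker genes of the 3 classes left out, the shares were 5.82%, 12.99% and 22.4% for the ciliated-like, secretory-like and basal-like classes. The log2 ratios were -0.75 for secretory-like over basal-like and -1.19 for ciliated-like over secretory-like cells. Those of deep over shallow cells were -0.85, -0.021 and -0.34 for the ciliated-like, secretory-like and basal-like classes. In secretory-like cells 48 members were lower, against 11.8% of all genes. With mitochondrially encoded genes left out, the shares were 5.94%, 8.25% and 23.0%, secretory-like over basal-like -1.45, ciliated-like over secretory-like -0.52, and the depth ratios -0.85, -0.28 and -0.39.

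Taken as a mean over cells, the shares were 7.15%, 8.04% and 22.5%, ciliated-like over basal-like -1.67, secretory-like over basal-like -1.46, ciliated-like over secretory-like -0.19, and the depth ratios -0.97, -0.36 and -0.34. With cells classed by a gate on marker shares (1462 cells lay near its limit), the shares were 5.96%, 7.64% and 20.3%, the ratios -1.75, -1.38 and -0.40, and the depth ratios -0.70, -0.46 and -0.50. In cells of 4000 to under 8000 UMIs the shares were 4.72%, 8.94% and 21.1% and the ratios -2.11, -1.27 and -0.89.

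With clusters formed on all genes, the secretory-like and basal-like shares were 7.93% and 21.9%, their ratio -1.43, and the ciliated-like and basal-like depth ratios -0.89 and -0.38. Without doublet removal these shares were 7.96% and 21.7%, ciliated-like over basal-like -1.94, secretory-like over basal-like -1.42, and the secretory-like and basal-like depth ratios -0.35 and -0.38. At a mitochondrial limit of 10% the basal-like share was 21.9%, secretory-like over basal-like -1.44, and the depth ratios -0.91, -0.40 and -0.39. Without the ciliated-like cluster of low mitochondrial share, the ciliated-like share was 5.57%, its ratios -1.98 and -0.56, and its depth ratio -0.84. Without the secretory-like cluster led by heat shock genes, the secretory-like share was 7.87%, its ratio to basal-like cells -1.44, ciliated-like over secretory-like -0.53 and its depth ratio -0.18. Depth limits the bins of under 20 cells and the small classes, whose shares rest on 6 to 80 cells a library.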
